A study of Homo sapiens with 6 samples.

Results

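Interferon-stimulated genes were followed here in polyadenylated RNA of NCI-H1650, a long-established human cell line from a lung adenocarcinoma with mutant EGFR, and of NCI-H1650Re, which the labels place at another time point. They call the first line pre-LUAD and the second post-SCLC, that is, before and after a change from lung adenocarcinoma to small cell lung cancer. No agent, dose or interferon treatment is given in the labels for either line, nor is it said how NCI-H1650Re was derived or whether it is 1 clone. Members were chosen by symbol: of 47 well-known interferon-stimulated genes, 42 were listed in the deposited expression table of 12659 genes. IFI44L, IFITM2, IRF7, MX2 and TRIM22 were not listed there, and the filter behind that table is not stated in the sources used here. All 42 listed members were among the 11764 genes tested, those with a mean of at least 1 FPKM (fragments per kilobase of transcript, scaled to the mapped total, a level per transcript length) in either line.

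Interferons are cytokines that cells release on sensing viral or misplaced nucleic acid. Type I and type III interferons bind different receptors, but both act through the kinases JAK1 and TYK2 on STAT proteins, among them STAT2, which joins IRF9 in the complex ISGF3. This complex binds the interferon-stimulated response element, or ISRE, in promoters and turns on a shared set of antiviral genes. Epithelial cells of the airway respond to both types, and many tumour lines transcribe some of these genes without added interferon.

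Each line had 3 libraries, numbered in the labels, and nothing says that these were separate cultures. The p-values therefore cover only the spread among these libraries, and that may be technical. Estimated depth was 17.001 to 22.3 M fragments per library, lowest in replicate 3 of each line (17.001 and 18.1 M). Replicate 3 of both lines stood apart in the interferon-stimulated genes, so results between the lines are given with and without those libraries. All 6 epithelial markers were listed and summed to 3456 to 4575 FPKM in NCI-H1650 and 3017 to 3041 in NCI-H1650Re. Within that sum KRT19, CDH1, EPCAM and KRT8 were lower in NCI-H1650Re (log2 changes -3.59, -0.82, -0.50 and -0.46, limma adjusted p = 0.000721, 0.00234, 0.00812 and 0.0214). KRT7 and KRT18 were higher by 0.35 and 0.13 on the log2 scale and did not pass. Of 8 small cell lung cancer markers only CHGA, SYP and DLL3 were listed, with sums of 4.47 to 5.59 and 7.48 to 11.2 FPKM, and NEUROD1, POU2F3 and INSM1, factors that define subtypes, were not listed. Of 12 leukocyte markers CD14 and CD74 were listed and the pan-leukocyte gene PTPRC was not. Of 7 fibroblast markers COL1A1 and COL3A1 were listed, with sums of 10.1 to 12.96 FPKM in NCI-H1650 and 23.04 to 40.1 in NCI-H1650Re, where the collagen COL3A1 was higher (log2 change 1.55, limma adjusted p = 0.00277). None of 5 endothelial markers was listed. In bulk RNA, fewer cells expressing a gene and less RNA per cell cannot be told apart.

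The interferon-stimulated genes were expressed in both lines, and the spread between libraries of a line was larger than the difference between the lines for nearly all of them. Their FPKM summed to 1572, 2019 and 4884 in NCI-H1650 replicates 1, 2 and 3, and to 2227, 2499 and 3452 in those of NCI-H1650Re. The 2 replicate 3 libraries were thus the highest of the 6, and every NCI-H1650Re sum lay between the lowest and the highest of NCI-H1650. The median member was also highest in the 2 replicate 3 libraries, at 12.2, 14.8 and 36.1 FPKM in NCI-H1650 and 13.5, 17.9 and 30.4 in NCI-H1650Re. For no member did the 3 libraries of one line lie wholly above those of the other (0 of 42), whereas the lines did not overlap for 47.2% of all tested genes. The NCI-H1650Re range lay inside the NCI-H1650 range for 23 of 42 members, beside 811 of the 11764 tested genes. The SD of the FPKM values was larger in NCI-H1650 for 41 of 42 members, against 41.6% of all tested genes, and IFIT2 was the exception.

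**Figure D1:**
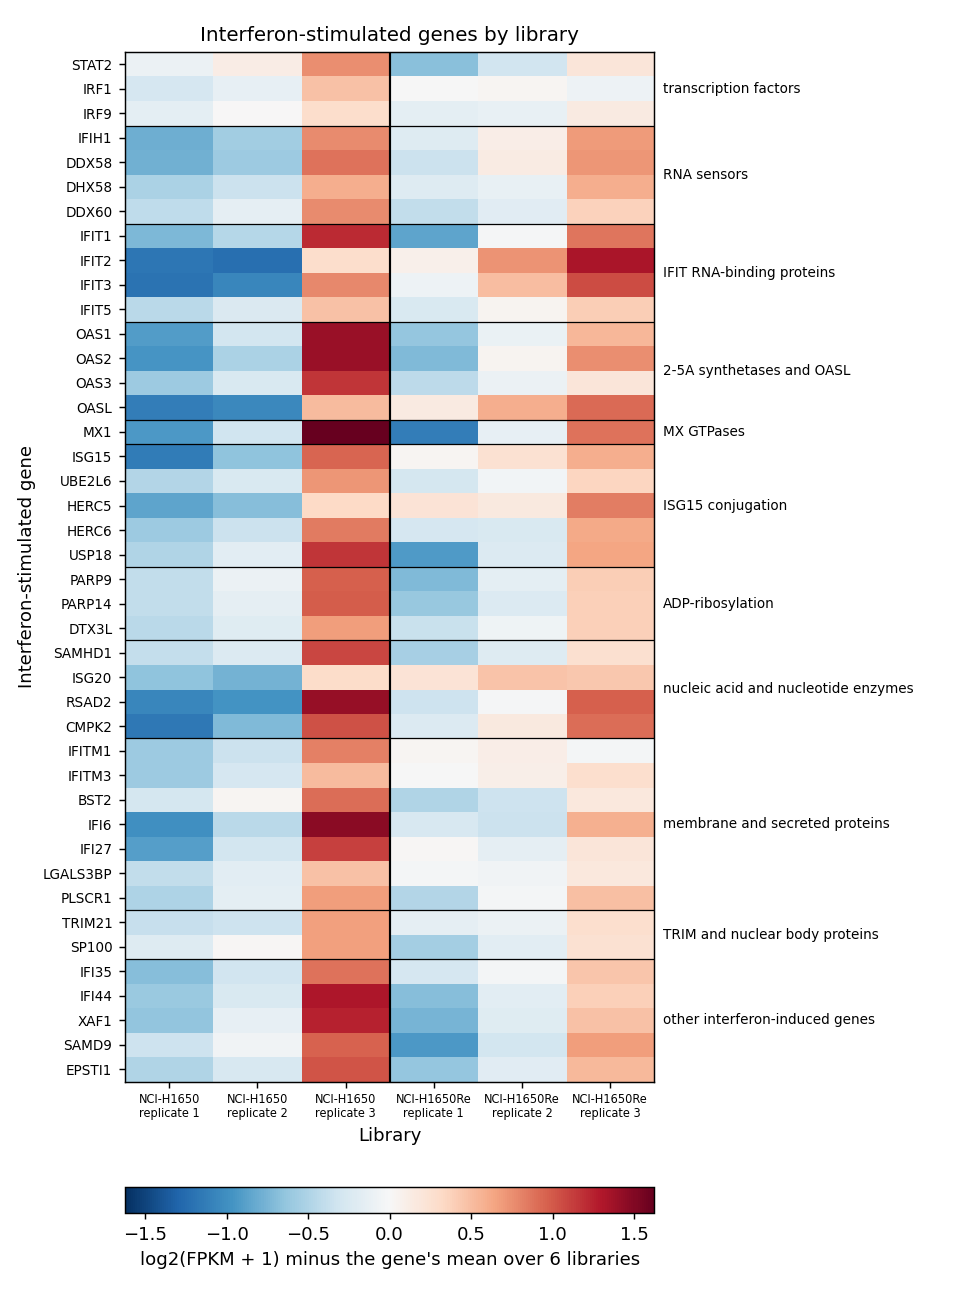
Each row is 1 of 42 interferon-stimulated genes, grouped by role, and each column 1 library; colour gives log2(FPKM + 1) minus the gene's mean over the 6 libraries. The columns of replicate 3 are the highest of their line for 39 genes, and the IFIT2, IFIT3, OASL, HERC5 and ISG20 rows are also low in NCI-H1650 replicates 1 and 2.

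Between the lines, 1 member, IFIT2, passed the test in the fit with the line as its only term. With the replicate number as a further term, 5 members were called higher and 4 lower in NCI-H1650Re, beside 29.9% of all tested genes called. IFIT2, which encodes an RNA-binding protein, was at 22.7, 21.9 and 64.1 FPKM in NCI-H1650 and 55.7, 87.6 and 133 FPKM in NCI-H1650Re. NCI-H1650Re was higher, and only NCI-H1650 replicate 3 reached into its range. The mean rose from 36.2 ± 24.1 to 92.1 ± 38.9 FPKM (SD, n = 3 per line), a log2 change of 1.42 (SE 0.44, 95% interval 0.39 to 2.45, limma adjusted p = 0.0457). Log2 changes are coded as NCI-H1650Re minus NCI-H1650 after adding 1 to each FPKM value, a scale on which changes of low genes come out too small. The deposited counts behind these values ran from 1570 to 4036 in NCI-H1650 and from 4187 to 8910 in NCI-H1650Re. IFIT2 lies on chromosome 10 from 89283694 to 89309276 (GRCh38, GENCODE release 29). Its exons share 229 bases on the same strand with AL353751.1, which was not tested, and 65 bases with LIPA on the opposite strand. Whether the counting used strand is not given, so IFIT2 is uncertain to the extent of both overlaps. Its call was lost without any 1 of NCI-H1650 replicates 1 and 2 and NCI-H1650Re replicates 2 and 3 (limma adjusted p = 0.143, 0.150, 0.121 and 0.0819), with median-of-ratios scaling (0.0537) and without a variance trend (0.0513).

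Against this 1 higher and 0 lower member of 42, limma called 16.6% of all tested genes higher and 13.9% lower in NCI-H1650Re. The other 41 members did not pass, and at an unadjusted limma p under 0.05 there were 4 higher (IFIT2, OASL, HERC5 and ISG20) and 0 lower. At that looser threshold the shares of all tested genes can only be at or above 16.6% and 13.9%. The 4 of 42 are therefore not a high share. The median log2 change over the members was -0.00068, beside 0.03 for all tested genes. In the authors' deposited comparison of the same 6 libraries, IFIT2 was the single member marked as up (log2 fold change 1.32, FDR 0.00210). There 0 members were marked as down, and OASL, HERC5 and ISG20 had an FDR under 0.05 (0.0347, 0.0266 and 0.0480) without a mark. The shares of all genes marked or under that FDR are not given here, so these counts cannot be read as many or few.

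The neighbours of IFIT2 on chromosome 10, all RNA-binding proteins of one family, did not share its level difference to the same size. IFIT3, which stabilises IFIT1 on RNA, was at 26.3, 29.1 and 106 FPKM in NCI-H1650 and 57.9, 87.2 and 130 in NCI-H1650Re (log2 change 0.98, SE 0.52, limma adjusted p = 0.188). IFIT1, which binds RNA with an unmethylated cap, was at 21.8, 26.4 and 86.6 FPKM and at 19.9, 36.3 and 67.9 FPKM, a log2 change of -0.01 with a 95% interval of -1.33 to 1.31. IFIT5 was at 7.39, 8.64 and 14.8 FPKM and at 8.62, 10.7 and 14.0 FPKM. For IFIT1 and IFIT5 the highest library of all 6 was NCI-H1650 replicate 3, while for IFIT2 and IFIT3 it was NCI-H1650Re replicate 3. The differences between these family members were not tested.

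Among the 2-5A synthetases, which answer double-stranded RNA by making short linked adenylates, the lines overlapped widely. OAS1 was at 15.1, 23.4 and 78.8 FPKM in NCI-H1650 and 18.5, 26.8 and 42.7 in NCI-H1650Re. OAS3, the member of this class with the highest mean level, was at 34.9, 44.6 and 120 FPKM and at 39.1, 49.7 and 61.0 FPKM. For both, NCI-H1650 replicate 3 was the highest library and NCI-H1650Re replicate 3 the next. OASL, a relative without synthetase activity, was at 11.2, 11.8 and 36.9 FPKM in NCI-H1650 and 28.2, 38.8 and 49.3 in NCI-H1650Re (log2 change 1.10, SE 0.42, limma adjusted p = 0.0842). Apart from NCI-H1650 replicate 3, its NCI-H1650 libraries lay below all those of NCI-H1650Re. OAS1, OAS2 and OAS3 are neighbours on chromosome 12, and OASL lies farther along the same chromosome.

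ISG15 and its conjugation machinery gave both patterns. ISG15, a ubiquitin-like protein attached to other proteins after interferon, was at 69.7, 97.8 and 299 FPKM in NCI-H1650 and 158, 183 and 233 in NCI-H1650Re (log2 change 0.57, SE 0.47, limma adjusted p = 0.388). HERC5, its main ligase in human cells, was at 8.66, 9.79 and 20.9 FPKM and at 19.4, 18.4 and 30.1 FPKM (log2 change 0.81, SE 0.31, limma adjusted p = 0.0868). UBE2L6, the conjugating enzyme, was at 42.4, 49.97 and 98.6 FPKM and at 48.8, 57.5 and 75.8 FPKM. For ISG15 and HERC5, NCI-H1650 replicates 1 and 2 lay below all 3 NCI-H1650Re libraries, and for UBE2L6 they did not. HERC6, the gene next to HERC5 on chromosome 4, was at 10.6, 12.7 and 30.4 FPKM and at 13.5, 13.7 and 25.8 FPKM. USP18, which removes ISG15 and damps receptor signalling, was at 7.52, 9.58 and 25.6 FPKM and at 5.32, 9.21 and 17.7 FPKM. In NCI-H1650Re, replicates 1 and 2 were nearly equal for HERC6 and unequal for USP18.

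MX1, a GTPase that traps viral nucleocapsids, had one of the widest ranges. It was at 54.2, 82.9 and 323 FPKM in NCI-H1650 and 47.5, 94.98 and 193 FPKM in NCI-H1650Re, and its log2 change of -0.25 had a 95% interval of -1.86 to 1.37 (limma adjusted p = 0.812). That direction changed to 0.25 without NCI-H1650Re replicate 1, to 0.50 without NCI-H1650 replicate 3 and to 0.0033 without both replicate 3 libraries. The interval covers changes of either sign well over 1 on the log2 scale, so this fit, which leaves out the replicate number, could not detect a moderate difference. With the replicate number as a further term the SE was 0.17 in place of 0.70 (limma adjusted p = 0.315). The labels' numbers were not taken to pair the samples.

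**Figure D2:**
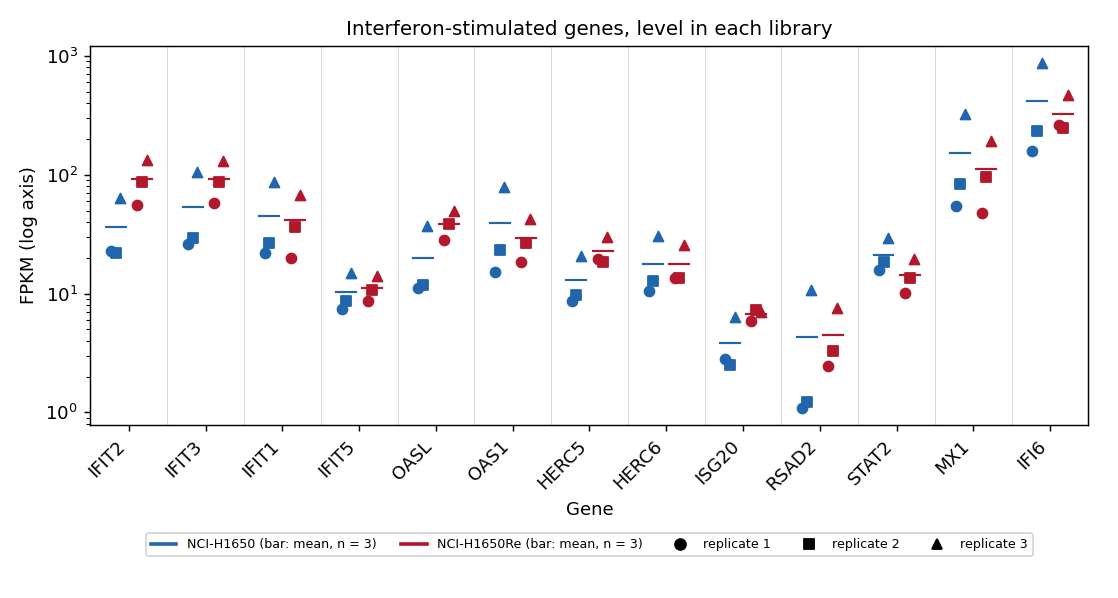
Points are FPKM values of single libraries on a log axis for 13 interferon-stimulated genes; colour gives the line, symbol shape the replicate number, and bars the mean of 3 libraries. NCI-H1650 replicates 1 and 2 lay below every NCI-H1650Re library for IFIT2, IFIT3, OASL, HERC5, HERC6, ISG20, RSAD2 and IFI6. Replicate 3 of NCI-H1650 was the highest of 6 for IFIT1, IFIT5, OAS1, HERC6, RSAD2, STAT2, MX1 and IFI6.

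The cytosolic RNA sensors went together. DDX58, which encodes RIG-I, was at 11.9, 13.7 and 39.8 FPKM in NCI-H1650 and 16.5, 23.4 and 35.5 in NCI-H1650Re. IFIH1, which encodes MDA5, was at 12.6, 14.9 and 39.1 FPKM and at 19.4, 24.5 and 37.0 FPKM. For these 2, and for the sensors DHX58 and DDX60, the NCI-H1650Re range lay inside that of NCI-H1650. Their log2 changes ran from -0.14 for DDX60 to 0.40 for IFIH1, and none passed.

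The 3 transcription factors lay at similar levels to each other. STAT2, the subunit that gives ISGF3 its transactivation domain, was at 15.7, 18.4 and 29.3 FPKM in NCI-H1650 and 10.2, 13.4 and 19.5 in NCI-H1650Re (log2 change -0.52, SE 0.27, limma adjusted p = 0.172). IRF9, its DNA-binding partner, was at 10.1, 11.4 and 14.0 FPKM and at 10.02, 10.3 and 12.7 FPKM. IRF1, a factor induced most by interferon gamma, was at 7.90, 8.82 and 13.9 FPKM and at 9.70, 10.1 and 9.20 FPKM. IRF1 was thus high in NCI-H1650 replicate 3 alone and flat in NCI-H1650Re.

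The highest levels per length belonged to membrane and secreted proteins. IFITM3, which blocks viral fusion at endosomes, was at 308, 383 and 661 FPKM in NCI-H1650 and 461, 494 and 563 in NCI-H1650Re. IFI6, a small membrane protein, was at 158, 233 and 870.2 FPKM and at 263, 247 and 471 FPKM, the highest single value of any member. IFITM1 was at 71.7, 84.8 and 191 FPKM and at 111, 117 and 106 FPKM, with no excess of replicate 3 in NCI-H1650Re. All 7 members of this class had their highest library in NCI-H1650 replicate 3. IFITM1 exons share 351 bases on the same strand with IFITM2, and IFITM3 has a near-identical copy in IFITM2, so both values are uncertain to the extent that fragments were split between the genes.

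Among enzymes of nucleic acids and nucleotides, RSAD2 encodes viperin, which makes a chain-terminating nucleotide, and CMPK2 is the nucleotide kinase encoded beside it on chromosome 2. RSAD2 was at 1.10, 1.23 and 10.7 FPKM in NCI-H1650 and 2.46, 3.31 and 7.57 in NCI-H1650Re. CMPK2 was at 1.99, 3.04 and 12.7 FPKM and at 4.73, 6.45 and 11.5 FPKM. For both, NCI-H1650 held the 2 lowest libraries and also the highest. ISG20, an exonuclease, was at 2.8, 2.5 and 6.31 FPKM and at 5.94, 7.24 and 7.06 FPKM (log2 change 0.75, SE 0.26, limma adjusted p = 0.0617). SAMHD1, which degrades deoxynucleotides, was at 4.82, 5.52 and 15.1 FPKM and at 4.23, 5.53 and 8.11 FPKM. Overlapping exons on opposite strands join RSAD2 with CMPK2 (14 bases) and SAMHD1 with TLDC2 (1068 bases).

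In the remaining classes the median log2 changes were negative and no gene passed. PARP9 was at 10.7, 13.5 and 29.1 FPKM in NCI-H1650 and 8.35, 12.8 and 19.4 in NCI-H1650Re, and its partner DTX3L, which shares 139 exonic bases with it on the opposite strand, at 12.8, 15.3 and 28.8 FPKM and at 13.6, 16.8 and 23.5 FPKM. SP100, a nuclear body protein, was at 13.4, 15.9 and 25.5 FPKM and at 10.4, 13.8 and 18.8 FPKM. SAMD9, an antiviral factor of poxvirus infection, was at 16.7, 20.5 and 42.4 FPKM and at 10.7, 17.3 and 34.9 FPKM. The lowest library of all 6 was NCI-H1650Re replicate 1 for PARP9, SP100 and SAMD9. The other 11 members of all classes, TRIM21, IFI35, IFI44, XAF1, EPSTI1, PARP14, OAS2, PLSCR1, BST2, IFI27 and LGALS3BP, did not pass either, with log2 changes from -0.43 for BST2 to 0.09 for IFI35.

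Without both replicate 3 libraries, which leaves 2 per line, more members passed. These libraries were singled out by the members' own values, so leaving them out lowers the members' spread within a line by choice. The SE of HERC5 went from 0.314 to 0.0846, and the p-values of these fits are given as a description only. The limma fit then called 13 of 42 higher in NCI-H1650Re, beside 23.7% of all tested genes, and 1 lower, beside 19.4%. The share called higher is near that of all genes, and the median log2 change of the members was 0.23, beside 0.04 over all tested genes. OASL rose by 1.45 on the log2 scale (adjusted p = 0.000298 with limma), IFIT2 by 1.60 (0.000592), IFIT3 by 1.33 (0.000977), ISG20 by 1.05 (0.000414), ISG15 by 1.03 (0.00173) and HERC5 by 0.96 (0.000238). CMPK2, RSAD2, IFIH1, DDX58, IFITM1, IFI27 and IFITM3 rose by 0.47 to 0.91. STAT2 fell by 0.51 (limma adjusted p = 0.0184). Leaving out NCI-H1650 replicate 3 alone gave 11 members higher and 0 lower, beside 14.2% and 12.7% of all tested genes. Leaving out NCI-H1650Re replicate 3 alone gave 0 higher and 1 lower, STAT2, beside 21% and 17%.

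**Figure D3:**
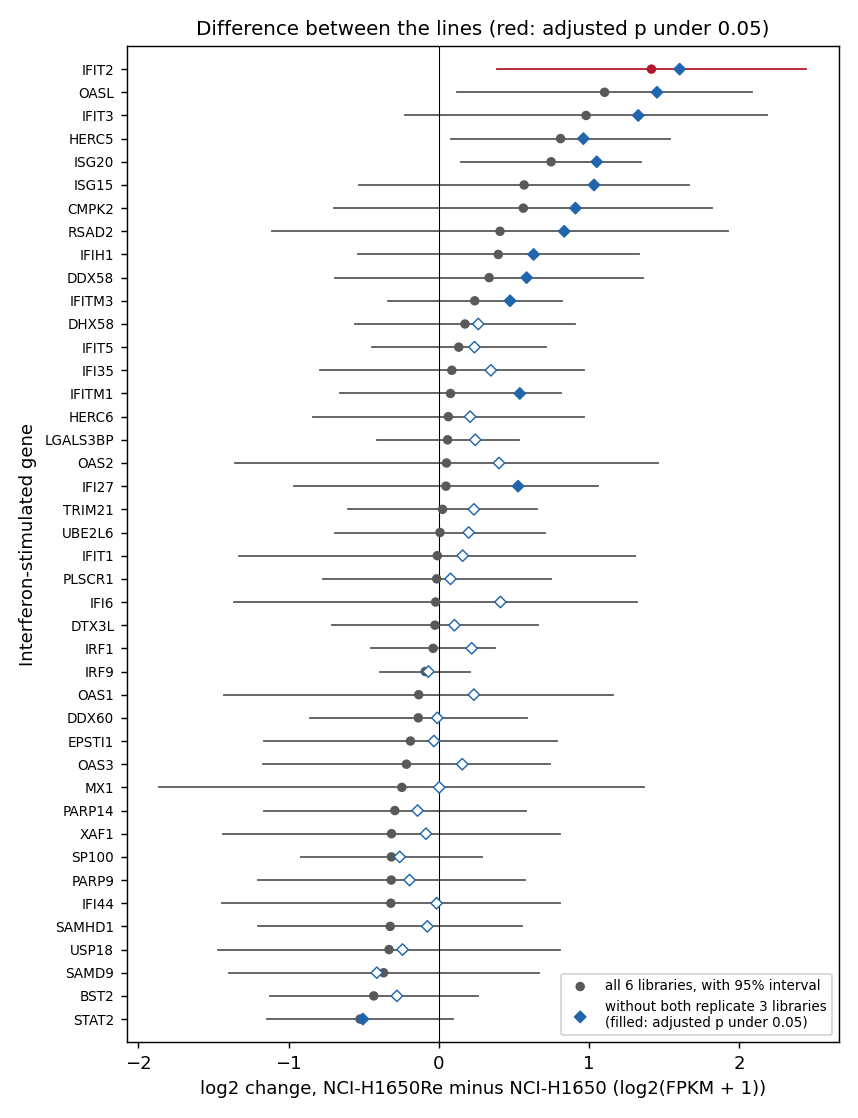
Log2 change between the lines on log2(FPKM + 1) for each of 42 interferon-stimulated genes: circles with 95% intervals use all 6 libraries (red where limma's adjusted p is under 0.05), diamonds leave out both replicate 3 libraries (filled where it is under 0.05). IFIT2 alone passes with all libraries, and 14 diamonds are filled, 13 of them to the right of 0.

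Replicate 3 was the highest library of both lines for 39 of 42 members, beside 15.2% of all tested genes. IRF1, IFITM1 and ISG20 were the exceptions, and only in NCI-H1650Re. The 2 replicate 3 libraries were the highest 2 of all 6 for 37 members, beside 5.6% of tested genes, and NCI-H1650 replicate 3 was the highest of 6 for 37 members, beside 14.1%. Replicate 1 was the lowest library of both lines for 34 members, beside 12.4% of tested genes. These are counts of libraries with no test. Replicate 3 was singled out by the members' own values, and the labels give no difference between the replicates.

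The size of that excess was taken as replicate 3 minus the mean of replicates 1 and 2 on log2(FPKM + 1). Its median over the members was 1.35 in NCI-H1650 and 0.71 in NCI-H1650Re, beside -0.02 in each line for all tested genes. In NCI-H1650 it ran from 0.35 for IRF9 to 2.43 for RSAD2, and in NCI-H1650Re from -0.10 for IFITM1 to 1.51 for MX1. The excess was larger in NCI-H1650 for 41 members, beside 51.0% of all tested genes, and SAMD9 was the exception (1.15 and 1.29). As a ratio of FPKM, replicate 3 was 9.17 times the mean of the other NCI-H1650 libraries for RSAD2, 4.71 times for MX1 and 4.45 times for IFI6. In NCI-H1650Re the same ratios were 2.62, 2.70 and 1.85. Members with a large excess in one line tended to have one in the other, with a Pearson correlation across the 42 genes of 0.59 (Spearman 0.61) against 0.21 across 11764 tested genes; the genes share the same 6 libraries and are not independent, so this is a description.

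**Figure D4:**
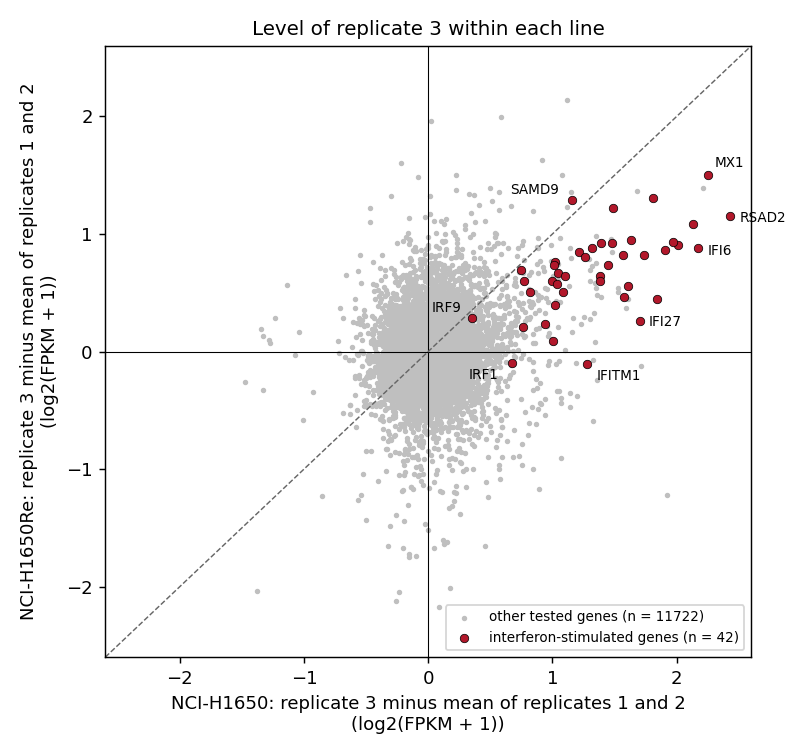
Each point is a gene, placed by replicate 3 minus the mean of replicates 1 and 2 on log2(FPKM + 1) in NCI-H1650 (x axis) and NCI-H1650Re (y axis); red points are the 42 interferon-stimulated genes, grey points other tested genes, and the dashed line marks equal values. All red points but SAMD9 lie under the dashed line, and IRF1 and IFITM1 lie below 0 on the y axis.

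By role, the median excess in NCI-H1650 was largest for the 2-5A synthetases and OASL (1.81), the nucleic acid and nucleotide enzymes (1.68) and the IFIT proteins (1.65) beside MX1 alone (2.25), and smallest for the transcription factors (0.68). In NCI-H1650Re the membrane and secreted proteins (0.26) and the transcription factors (0.29) had the smallest medians. When genes were ranked by the smaller of the 2 lines' gaps between replicate 3 and the next library of the line, 21 of the top 50 of 11764 genes were members, and 28 of the top 100. MX1 ranked 3, RSAD2 4, SAMD9 5, IFIT1 7, HERC6 9, USP18 10, IFI6 13 and CMPK2 18. Since replicate 3 was chosen by the members' own values, high ranks of members follow from that choice and are a description only.

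The 2 listed leukocyte markers went different ways. CD74, which interferon gamma can also induce, was at 1.56, 2.42 and 10.2 FPKM in NCI-H1650 and 4.39, 4.72 and 1.38 in NCI-H1650Re. CD14 was at 1.09, 1.86 and 1.72 FPKM and at 0.13, 0.17 and 0.29 FPKM, highest in replicate 3 of NCI-H1650Re but not of NCI-H1650. Their sum, mostly CD74 in each library, was at 2.65 to 11.9 FPKM in NCI-H1650, highest in replicate 3, and at 1.67 to 4.89 FPKM in NCI-H1650Re, lowest in replicate 3. PTPRC, CD3E, MS4A1 and ITGAM were not listed. Depth was lowest in replicate 3 of each line, and its part in the excess was not tested.

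Genes outside the members that most resembled this pattern were taken by the same ranking. LAMP3, an interferon-inducible lysosomal membrane protein, ranked 1, at 1.13, 1.21 and 9.03 FPKM in NCI-H1650 and 0.80, 1.63 and 4.72 in NCI-H1650Re. OR56B1, annotated as an olfactory receptor, ranked 2, at 2.85, 4.20 and 13.3 FPKM and at 0.65, 1.59 and 4.32 FPKM. Its exons share 642 bases on the same strand with TRIM22, which was not listed, so its value cannot be told apart from TRIM22 transcripts. The other 8 were DAPP1, SPRR3, SPRR1B, TSPAN1, ANKRD1, KLK6, PODXL and SMPDL3B, among which SPRR3 and SPRR1B encode proteins of the cornified envelope of squamous epithelium. SPRR3 was at 1.5, 2.46 and 5.38 FPKM and at 1, 0.75 and 7.24 FPKM, and KLK6, a secreted protease, at 55.2, 60.7 and 107 FPKM and at 12.0, 13.4 and 24.3 FPKM. Both had replicate 3 highest in each line.

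Of 68 further genes of interferon production, signalling and response, 58 were listed and 57 were tested. CXCL10, CXCL11, GBP2, GMPR, IFNAR2, IFNB1, IFNE, IFNL2, IFNL3 and ZBP1 were not listed, and SLFN5 fell under the filter. In the limma fit 3 were higher and 3 lower in NCI-H1650Re, 51 did not pass, and the shares for all tested genes were those given above (16.6% and 13.9%). Replicate 3 was the highest library of both lines for 38 of the 57.

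The only interferon gene among those listed was IFNL1, a type III interferon. It was at 0.31, 0.54 and 2.61 FPKM in NCI-H1650 and 1.55, 3.46 and 4.06 FPKM in NCI-H1650Re (log2 change 0.99, SE 0.40, limma adjusted p = 0.0983). NCI-H1650 replicates 1 and 2 lay below the other 4 libraries. Among the receptor chains, IFNLR1, the specific chain for type III interferon, was at 1.10, 1.19 and 1.71 FPKM and at 2.26, 2.11 and 1.39 FPKM. IL10RB, its partner, was at 8.19, 8.23 and 8.38 FPKM and at 9.01, 9.14 and 6.99 FPKM, and IFNAR1, a type I receptor chain, at 8.69, 8.16 and 7.86 FPKM and at 9.08, 8.57 and 8.44 FPKM. None of the receptor chains passed, and IFNAR1 showed no excess of replicate 3 in either line.

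Of the kinases, JAK2, which serves the interferon gamma receptor, rose from 2.09 ± 0.29 to 3.34 ± 0.38 FPKM (log2 change 0.49, limma adjusted p = 0.0130). JAK1 was at 44.9 ± 3.65 and 47.0 ± 2.42 FPKM and TYK2 at 17.8 ± 1.39 and 18.6 ± 2.34 FPKM, and neither passed. For JAK1 the log2 excess of replicate 3 was -0.15 in the first line and 0.05 in the second. The JAK2 call was lost without NCI-H1650 replicate 2 (limma adjusted p = 0.0565).

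CCL5, a chemokine, was at 19.5, 24.6 and 73.8 FPKM in NCI-H1650 and 79.3, 116 and 87.9 FPKM in NCI-H1650Re, with no overlap between the lines. It rose by 1.47 on the log2 scale (SE 0.44, limma adjusted p = 0.0379), a call lost without NCI-H1650 replicate 1 or 2 (0.113 and 0.128) or NCI-H1650Re replicate 1 or 2 (0.0562 and 0.125). ZC3HAV1, an antiviral zinc finger protein, rose from 16.3 ± 2.94 to 30.7 ± 4.78 FPKM (log2 change 0.88, limma adjusted p = 0.00438). TLR3, the endosomal sensor of double-stranded RNA, fell from 1.04, 1.17 and 2.27 FPKM to 0.08, 0.10 and 0.51 FPKM (log2 change -1.004, limma adjusted p = 0.0114). TRIM34 fell by 0.69 on the log2 scale (limma adjusted p = 0.0150), although its exons share 1255 bases with the TRIM6-TRIM34 readthrough gene and its value is uncertain to that extent. The TRIM34 call was lost without NCI-H1650Re replicate 2 (limma adjusted p = 0.0611). Among the genes of this list, SAMD9L, GBP1, SP110 and PARP12 had the largest shared excess of replicate 3. SAMD9L was at 4.88, 6.22 and 11.3 FPKM and at 1.97, 4.09 and 11.03 FPKM.

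**Figure D5:**
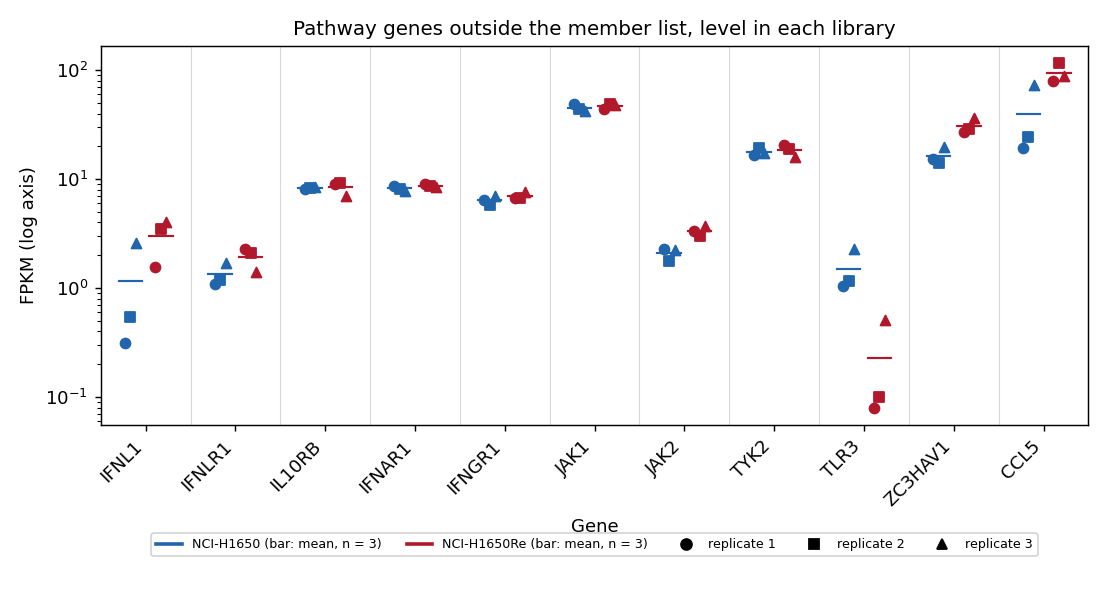
Points are FPKM values of single libraries on a log axis for 11 genes of interferon production, signalling and response outside the members; colour gives the line, symbol shape the replicate number, and bars the mean of 3 libraries. IFNAR1, IL10RB, JAK1 and TYK2 span narrow ranges, IFNL1 is highest in replicate 3 of each line, and the lines do not overlap for CCL5, TLR3, ZC3HAV1 and JAK2.

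The members were chosen as well-known interferon-stimulated genes, and their promoters were read for the ISRE. A high share of matches can follow from that choice and does not bear on the order of libraries. RefSeq start sites (GRCh38.p14) were at hand for 37 of the 42 listed members, with DDX58 matched under its later symbol RIGI. The ISRE core searched was GAAANNGAAA on either strand, in the 250 bases before each listed start. At least 1 match was found for 23 of these 37 members (62.2%), beside 3.71% of all 27305 genes with a promoter entry. Of the further pathway genes outside the members, 16 of 51 with an entry had a match. The palindromic GAS motif TTCNNNGAA, a site type bound by STAT dimers, was found for 11 of 37 (29.7%), beside 8.09% of all genes. A match is only a run of letters and does not show a bound site.

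The last 120 bases before the start are shown for ISG15, IFIT1, IFIT5, IFI6 and HERC5, which hold ISRE matches there, and for HERC6, which has none in its window although it lies beside HERC5. Capitals mark the ISRE core matches, on either strand, and each sequence is written 5′ to 3′ on the strand of its gene. The windows are chr1:1013377-1013496 (plus strand) for ISG15, chr10:89392503-89392622 (plus strand) for IFIT1, chr10:89414448-89414567 (plus strand) for IFIT5, chr1:27672193-27672312 (minus strand) for IFI6, chr4:88456999-88457118 (plus strand) for HERC5, chr4:88378732-88378851 (plus strand) for HERC6.
ISG15: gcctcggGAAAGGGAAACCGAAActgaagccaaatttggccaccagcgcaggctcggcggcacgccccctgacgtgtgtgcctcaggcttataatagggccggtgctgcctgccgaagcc
IFIT1: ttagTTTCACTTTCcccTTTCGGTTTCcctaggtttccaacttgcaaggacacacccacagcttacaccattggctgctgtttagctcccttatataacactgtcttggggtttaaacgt
IFIT5: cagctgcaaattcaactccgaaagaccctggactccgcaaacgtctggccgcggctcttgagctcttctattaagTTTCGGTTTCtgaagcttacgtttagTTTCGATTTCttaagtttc
IFI6: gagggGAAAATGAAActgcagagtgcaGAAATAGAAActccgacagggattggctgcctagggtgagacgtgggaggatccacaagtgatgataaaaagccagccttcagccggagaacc
HERC5: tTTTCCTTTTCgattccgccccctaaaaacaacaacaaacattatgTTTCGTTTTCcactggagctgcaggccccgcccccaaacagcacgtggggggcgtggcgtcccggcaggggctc
HERC6: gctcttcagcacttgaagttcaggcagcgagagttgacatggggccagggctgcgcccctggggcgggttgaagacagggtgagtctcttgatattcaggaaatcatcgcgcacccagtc
In ISG15 the 2 matches overlap, so that GAAA is repeated at a spacing of 6 bases. In IFIT1, IFIT5 and HERC5 both matches are on the opposite strand and read TTTCNNTTTC. The match nearest to the start lay 107 bases before it in ISG15, 103 in IFIT1, 93 in IFI6, 74 in HERC5 and 19 in IFIT5.

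The excess of replicate 3 is given here for members with and without a match, and the difference was not tested. Members with an ISRE match had a median excess of 1.28 in NCI-H1650 and 0.73 in NCI-H1650Re, and the 14 without one had 1.199 and 0.62. HERC6, with no match in its window, had an excess of 1.32 and 0.88, and HERC5, with matches, 1.10 and 0.64. IFIT5 carried matches and had 0.82 and 0.50, below the 1.81 and 1.30 of IFIT1.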

How the data were processed

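Polyadenylated RNA of 2 cell lines was sequenced in 3 libraries each. The FPKM of 12659 genes in each library were deposited by the authors. The authors gave read counts for the genes they marked as regulated. Their FDR, an adjusted p-value, and log2 fold change per gene come from the authors, as named in the headers. HISAT2, Bowtie2, RSEM and DESeq2 appear, with no version, in the submitters' processing notes, which also give the mouse build mm10, whereas the deposited identifiers are human; the human build and the strand setting are not given in the sources used here.

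The members, gene lists, comparison and settings were chosen with earlier results of these data known. Since FPKM are not counts, limma 3.58.1 (R 4.3.3) with a variance trend was fitted to log2(FPKM + 1) with the line as its only term, over the 11764 genes whose mean reached 1 FPKM in one line or both. Benjamini-Hochberg adjustment ran over those genes, with a threshold of 0.05. The procedure was tested on simulated data. Depth was estimated from the ratio of deposited counts to FPKM, in 307 genes for the ratio between libraries and in 18 single-transcript genes for the level. Positions came from GENCODE release 29 (GRCh38). A gene with several RefSeq start sites was counted as holding a motif where any of its 250-base windows did.

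Genes were named by rule: members passing the test, the 2 members of each role with the highest mean, the 8 members with the largest shared gap of replicate 3, the pathway genes that signal, pass or share the gap most, and the 10 other genes with the largest gap. Other named members (IFIT5, OASL, HERC5, ISG20, IRF1, IFITM1 and those in lists of names) were picked with their values in view. Values of some genes in the pathway and marker lists are not reported here. Alternatives were pseudocounts of 0.1 and 0.01, no filter, filters at 5 FPKM in either line and at 1 FPKM over all libraries, no variance trend, scaling by median-of-ratios or quantiles, a replicate block, each library left out in turn, and both replicate 3 libraries left out. Analyses also used Python 3.11.15, pandas 2.3.3 and matplotlib 3.10.9.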

Additional observations from a re-analysis of the deposited data

How the results depend on the processing

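The count of genes called between the lines ran from 1785 to 4478 when 1 library was left out, against 3587 with all. Members called higher in NCI-H1650Re numbered 1, and 0 to 11 when 1 library was left out. There were 0 with median-of-ratios scaling, 0 without a variance trend and 13 without both replicate 3 libraries. Members called lower numbered 0, with 0 to 1 when 1 library was left out and 1 without both replicate 3 libraries. Pathway genes called outside the members numbered 6, with 3 to 14 when 1 library was left out and 25 of 57 without both replicate 3 libraries, where 43.2% of all tested genes were called. Pseudocounts of 0.1 and 0.01, the other filters on low values and quantile normalization left 1 member higher, IFIT2, and 0 lower; at a mean of 5 FPKM in either line 39 members remained in the test. The log2 change of MX1 was -0.25 and became 0.0033 without both replicate 3 libraries; it ran from -0.77 to 0.50 when 1 library was left out. Among the 42 members, the sign changed for 8 without both replicate 3 libraries, 18 when NCI-H1650 replicate 3 alone was left out and 2 to 11 without any other library. Why these values moved was not tested.

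Over all tested genes, deviations of like-numbered libraries from their line's mean correlated at 0.17, -0.04 and 0.21 for replicates 1, 2 and 3. The labels' numbers were therefore not taken to pair the samples. The members did share an order by number, with replicate 3 highest in both lines for 39 of 42 and replicate 1 lowest for 34. With a replicate block, 5 members were called higher (HERC5, IFIT2, IFIT3, ISG20 and OASL) and 4 lower (BST2, SAMD9, SP100 and STAT2), and 15 of 57 pathway genes were called, beside 29.9% of all tested genes. Not every sample correlated best with its own number.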
